A study of Mus musculus with 9 samples.

Results

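This section describes 31 genes that mark astrocytes, taken from 35125 genes with an NCBI identifier in a table of the medial prefrontal cortex of mice. The 31 were chosen by name as astrocyte markers, by a rule that uses no measured value, although earlier results of these data were known when the set was drawn up. The table covered 9 libraries in 3 groups of 3, namely control mice without stress, mice of the CUS model (chronic unpredictable stress), and mice of the running model, labelled as exercise and studied, per the series description, in mice exposed to the stress. Every group carries the terms 4 week and week 8 in its label, and what they refer to is not stated. The sources used here give no strain, sex or age. Replicate numbers follow the order of listing and pair no libraries. The labels do not say that each library came from its own animal, so the spread behind each p-value is that of the 9 libraries and may be technical. All 31 genes passed the filter of at least 0.5 FPKM in at least 3 libraries, together with 14013 genes in all. FPKM is the number of fragments scaled by transcript length and by the mapped fragments of the library, so levels of different genes can be set side by side.

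Astrocytes are the glial cells that take up glutamate and potassium released by neurons, supply them with glutamine and lactate, cover blood vessels with endfeet rich in water channels, and form a network coupled by gap junctions. Under injury or inflammation they can become reactive, a state in which the filament protein GFAP and acute phase proteins such as Serpina3n rise. Loss of astrocytes and of their glutamate transporters in the prefrontal cortex is a much studied feature of stress models of depression. Several of the 31 genes are not made by astrocytes alone: microglia also express Apoe, oligodendrocytes Glul and S100b, and neurons and endothelium Sparcl1 and Clu. In bulk tissue, fewer astrocytes and less RNA per astrocyte cannot be told apart.

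The promoters of 4 genes on which the results turn are shown first, as the 250 bases before the RefSeq start on GRCm38.p6. The 4 are Slc1a2, Ppp1r3c and Serpina3n, each with a pair of groups that did not overlap, and Gfap, which had the largest difference in CUS against control although those groups overlapped. Capitals mark the letters ACANNNTGT of the glucocorticoid response element, the only one of 6 searched motifs found in these windows.
Slc1a2, chr2:102706188-102706437, plus strand: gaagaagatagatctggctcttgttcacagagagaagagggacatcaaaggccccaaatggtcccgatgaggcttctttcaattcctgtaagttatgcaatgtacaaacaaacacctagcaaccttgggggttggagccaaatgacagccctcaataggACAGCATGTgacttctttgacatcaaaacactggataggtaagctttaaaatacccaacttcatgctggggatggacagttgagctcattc
Serpina3n, chr12:104406458-104406707, plus strand: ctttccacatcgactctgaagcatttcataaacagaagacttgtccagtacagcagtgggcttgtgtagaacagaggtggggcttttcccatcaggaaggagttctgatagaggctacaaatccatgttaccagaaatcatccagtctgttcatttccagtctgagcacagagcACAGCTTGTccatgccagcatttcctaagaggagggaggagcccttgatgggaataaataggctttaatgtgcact
Ppp1r3c, chr19:36736605-36736854, minus strand: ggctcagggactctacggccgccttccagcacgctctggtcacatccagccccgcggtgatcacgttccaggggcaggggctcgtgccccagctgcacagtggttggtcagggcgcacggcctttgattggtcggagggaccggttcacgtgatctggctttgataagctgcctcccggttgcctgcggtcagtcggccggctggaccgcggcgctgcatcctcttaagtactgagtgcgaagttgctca
Gfap, chr11:102897201-102897450, minus strand: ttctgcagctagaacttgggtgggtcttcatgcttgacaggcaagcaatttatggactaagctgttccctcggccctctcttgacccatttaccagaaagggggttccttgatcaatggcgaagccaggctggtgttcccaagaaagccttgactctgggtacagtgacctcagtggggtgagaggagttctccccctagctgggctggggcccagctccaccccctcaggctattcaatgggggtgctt
The Slc1a2 start in this table lies inside the gene, whose span is chr2:102658239-102790784, and the Serpina3n start lies just inside that gene (chr12:104406646-104414334). The Ppp1r3c and Gfap windows end at the edge of their genes, chr19:36731731-36736604 and chr11:102887336-102897200, both read from the minus strand.

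Of the 31 genes, 26 had a promoter in the table, with 34 windows in all. On both strands, ACANNNTGT was found in 4 of these 34 windows (11.8%), belonging to Slc1a2, Serpina3n, Glul and Cldn10, against 5.84% of all 32851 windows of the same length. It began 91 bases before the Slc1a2 start and 76 bases before the Serpina3n start. The STAT motif TTCNNNGAA was in 4 windows (11.8%, against 7.02% of all), those of Acsbg1, Aldoc, Ntsr2 and Slc1a3. The SOX motif ACAAAG was in 2 windows (5.88% against 16.5%), those of Apoe and Cldn10, and the NFI letters TTGGCA were in 3 (8.82% against 12.3%), those of Aldoc, Apoe and S100b. The full palindromic NFI site was in 0 of the 34 and in 0.0365% of all windows. TATAAA was in 4 (11.8% against 12.4%), those of Apoe, Ndrg2, Slc1a3 and Slc39a12. A match of letters is a description and not a bound site.

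The 31 genes spanned a wide range of levels. Apoe, the lipid carrier, averaged 1054 FPKM over the 9 libraries and ranked 12 among 14013 genes. It was followed by Glul (glutamine synthetase, 599 FPKM), Sparcl1 (a secreted matrix protein, 574), Clu (clusterin, a secreted chaperone, 442) and Aldoc (the brain aldolase, 298). At the other end stood Sox9, a transcription factor of the astrocyte lineage, at 8.28 FPKM, and Serpina3n, a protease inhibitor, at 9.35 FPKM. Together the 31 genes held between 1.11% and 1.31% of the summed FPKM of a library. The median SD within groups was 0.116 on the log2 scale for the 31 genes and 0.112 for all tested genes. The most variable were Gfap (SD 0.24 log2), Gjb6 (0.22), Cldn10 (0.20) and S100b (0.20), and the least variable were Ttyh1 (0.06) and Sox9 (0.06).

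Much of the variation among the 31 genes ran along single libraries within a group. Control replicate 3 held the highest value of the control group for 28 of the 31 genes, all but Slc1a2, Slc4a4 and Serpina3n. Running replicate 1 held the lowest value of its group for 27 of the 31, all but Slc7a10, S100b, Sox9 and Serpina3n. CUS replicate 3 was highest in its group for 21 and lowest for 5, namely Slc1a2, Slc6a11, Slc4a4, Atp1b2 and Sparcl1. CUS replicate 2 was lowest for 18. The shares of all tested genes with the same highest or lowest library were not computed, so these counts have no background to be read against. A score per library, the mean over the 31 genes of the log2 value minus that gene's mean over 9 libraries, was -0.01, -0.02 and 0.16 in the controls. It was -0.07, -0.11 and 0.07 in CUS, and -0.10, 0.05 and 0.03 in running. The groups overlapped on this score.

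**Figure D1:**
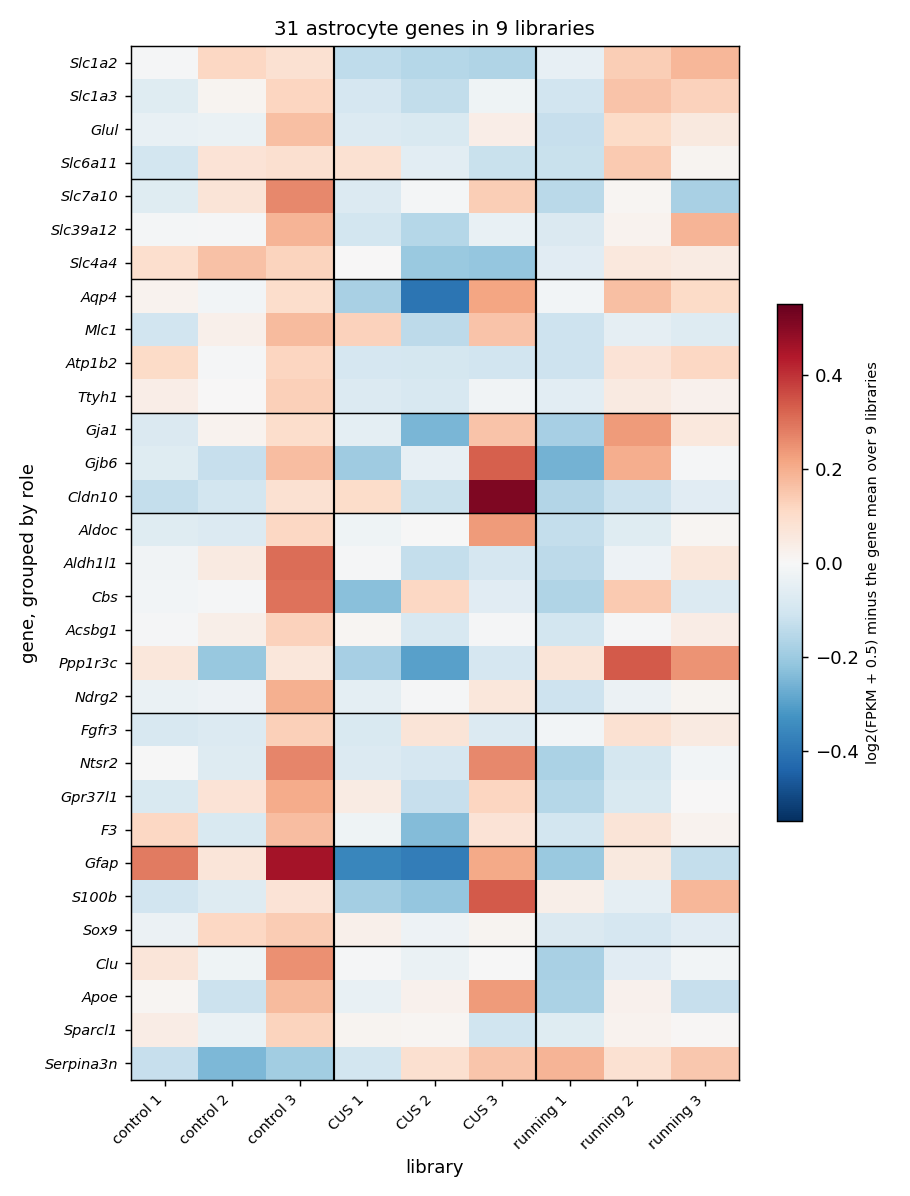
Each row is 1 of the 31 astrocyte genes, grouped by role between horizontal lines, and each column is 1 of the 9 libraries; colour gives log2(FPKM + 0.5) minus the mean of the gene over the 9 libraries. The column of control replicate 3 is red for most genes, that of running replicate 1 is blue for most, and Serpina3n at the bottom runs the other way.

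Values of other cell types also differed between these libraries. Control replicate 3 had 1404 FPKM summed over 20 genes of oligodendrocytes and myelin, against 774.5 and 831 in the other controls, 611 to 865 in CUS and 711 to 781 in running. It also had 222 FPKM summed over 11 genes of choroid plexus and ependyma, against 11.6 to 46.2 in the other 8 libraries, nearly all of it Ttr, and only 4 of these 11 genes passed the filter. CUS replicate 3 had 9643 FPKM summed over 22 cytosolic ribosomal protein genes, against 6028 to 7474 in the others, and its summed FPKM over all genes was 423257, against 370441 to 393663. Of 11 genes of excitatory neurons, 7 were higher and 4 lower in CUS than in control, and at an unadjusted p under 0.05 there was 1 higher and 0 lower. Of 11 genes of inhibitory neurons, 4 were higher and 7 lower, with 0 higher and 3 lower at that p. Of all tested genes, 55.9% were higher and 44.1% lower in CUS than in control, with 8.90% higher and 5.79% lower at that p. The part of these differences in the astrocyte values was not tested. The summed FPKM of 12 endothelial genes was 147 to 161 in controls, 129 to 154 in CUS and 117 to 153 in running, and that of 15 microglial genes was 348 to 389, 358 to 459 and 332 to 351. That of 10 meningeal genes was 36.1 to 59.2, 42.7 to 80.1 and 33.7 to 62.5 FPKM, with 10 of the 10 higher in CUS than in control, 9 of 10 lower in running than in CUS, and 0 at an unadjusted p under 0.05. Of the 15 microglial genes, 14 were higher and 1 lower in CUS than in control, with 3 higher and 0 lower at that p. In running against CUS 15 were lower and 0 higher, with 6 lower at that p, where 15.7% of all tested genes were. In CUS against control the mean was also lower for 19 of 20 oligodendrocyte genes, 10 of 12 endothelial, 10 of 11 mural cell and 12 of 12 immediate early genes. It was higher for 20 of 20 genes of oxidative phosphorylation and 22 of 22 ribosomal protein genes, and 0 genes of these lists were called by limma at an adjusted p of 0.05. In running against CUS, 20 of 20 and 22 of 22 of the last lists were lower, and 12 of 12 immediate early genes were higher. Of all tested genes, 57.8% were lower and 42.2% higher in that comparison.

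**Figure D2:**
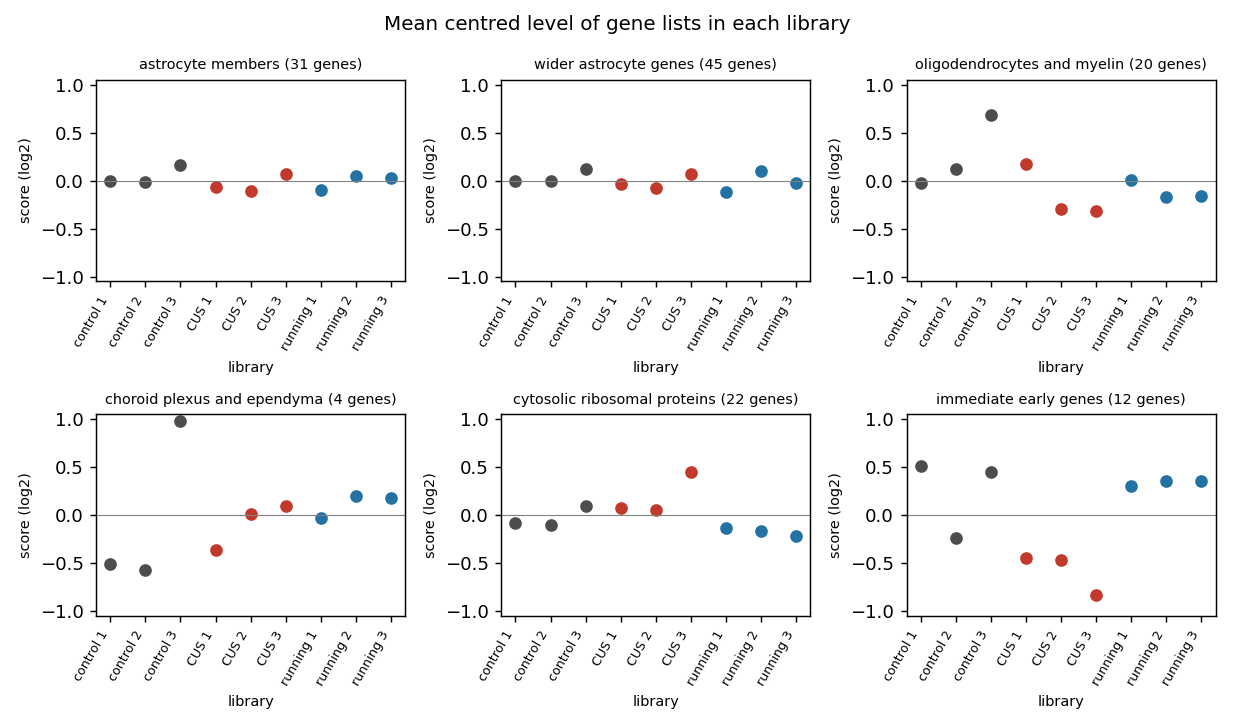
Each panel shows 1 gene list, each point 1 library (grey control, red CUS, blue running), and the vertical axis the list's score, made as for the 31 genes from the tested genes of the list. The astrocyte scores lie between -0.11 and 0.16, while control replicate 3 stands at 0.68 for myelin and 0.98 for choroid plexus, and CUS replicate 3 at 0.45 for ribosomal proteins.

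In CUS compared with control, most of the 31 genes had a lower mean, and the glutamate transporter Slc1a2, the bicarbonate transporter Slc4a4, the sodium pump subunit Atp1b2, the chloride channel Ttyh1 and the zinc transporter Slc39a12 were lower in each CUS library than in each control. Serpina3n was higher in each CUS library. The mean was lower for 24 and higher for 7 of the 31, where 44.1% of all tested genes were below and 55.9% above 0, and the median log2 difference was -0.07 against 0.02 over all tested genes. By limma, 0 of the 31 passed an adjusted p of 0.05, where 0.00714% of tested genes did (1 of 14013), and the adjusted p of the 31 lay between 0.253 and 0.97. At an unadjusted p under 0.05 there were 4 lower and 1 higher gene, where 5.79% and 8.90% of all tested genes were. Groups did not overlap for 5 lower and 1 higher gene (16.1% and 3.23% of the 31), against 7.60% and 12.1% of all tested genes. After rescaling to TPM 28 were lower and 3 higher, and the median of -0.137 stood beside -0.041 over all tested genes, which that scaling moved by -0.063. After quantile normalization 29 were lower and 2 higher, with medians of -0.136 and 0.009. Without control replicate 3 the median was -0.03, with 19 lower and 12 higher. Without control replicate 1 it was -0.11, and without CUS replicate 3 it was -0.135.

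In running compared with CUS, the differences were of both signs. The glycogen regulator Ppp1r3c and Slc1a2 were each higher in every running library than in any CUS library, a share of the 31 below that of all tested genes. The mean was higher for 20 and lower for 11 of the 31, where 42.2% of all tested genes were above and 57.8% below 0, with a median of 0.04 against -0.03 over all tested genes. By limma, 0 of the 31 passed an adjusted p of 0.05, where 0.00714% of tested genes did, and the adjusted p lay between 0.0776 and 0.971. It was 0.0776 for Ppp1r3c and 0.0928 for Slc1a2, where 6.62% of all tested genes (928 of 14013) had an adjusted p under 0.1. At an unadjusted p under 0.05 there were 2 higher and 0 lower genes (background 7.74% and 15.7%). Groups did not overlap for 2 higher genes and 1 lower gene (6.45% and 3.23% of the 31), against 8.99% and 15.9% of all tested genes. The lower gene was Sox9, whose value after rescaling to TPM was 0.013. Rescaling to TPM moved the median of all tested genes by 0.095, to 0.062, and that of the 31 to 0.145 (25 higher, 6 lower). The median of the 31 was 0.117 after quantile normalization (24 higher, 7 lower, all tested genes -0.002), 0.067 with library quality weights, and 0.01 once the dependence on transcript length and GC content was removed. It was -0.02 without CUS replicate 2, -0.001 without running replicate 2, 0.03 without CUS replicate 1 and 0.09 without running replicate 1. With limma's library quality weights, which gave CUS replicate 3 a weight of 0.244, 3 of the 31 passed: Slc1a2, Ppp1r3c and Aqp4. With these weights 2178 of the 14013 tested genes passed, a larger share than that of the 31.

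In running compared with control, Serpina3n and Ppp1r3c were higher in each running library, and Gfap, Sox9 and Slc4a4 were lower. In both directions this was a share of the 31 below that of all tested genes. This comparison uses the same running and control libraries as the others. The mean was lower for 23 and higher for 8 of the 31, where 56.2% of all tested genes were below and 43.8% above 0, with a median of -0.06 against -0.02. By limma, 0 passed an adjusted p of 0.05 (0.0214% of tested genes did), and the adjusted p lay between 0.172 and 0.982. At an unadjusted p under 0.05 there were 3 lower and 2 higher genes, with backgrounds of 6.47% and 5.15%. Groups did not overlap for 3 lower and 2 higher genes (9.68% and 6.45% of the 31), against 11.9% and 10.5% of all tested genes. After quantile normalization 17 were lower and 14 higher (median -0.013), against a median of 0.004 over all tested genes. After rescaling to TPM, which moved the median of all tested genes by 0.034, to 0.015, 19 were lower and 12 higher (median -0.020). The median was -0.02 without control replicate 3 or without running replicate 1, and -0.09 without control replicate 2 or without running replicate 3.

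**Figure D3:**
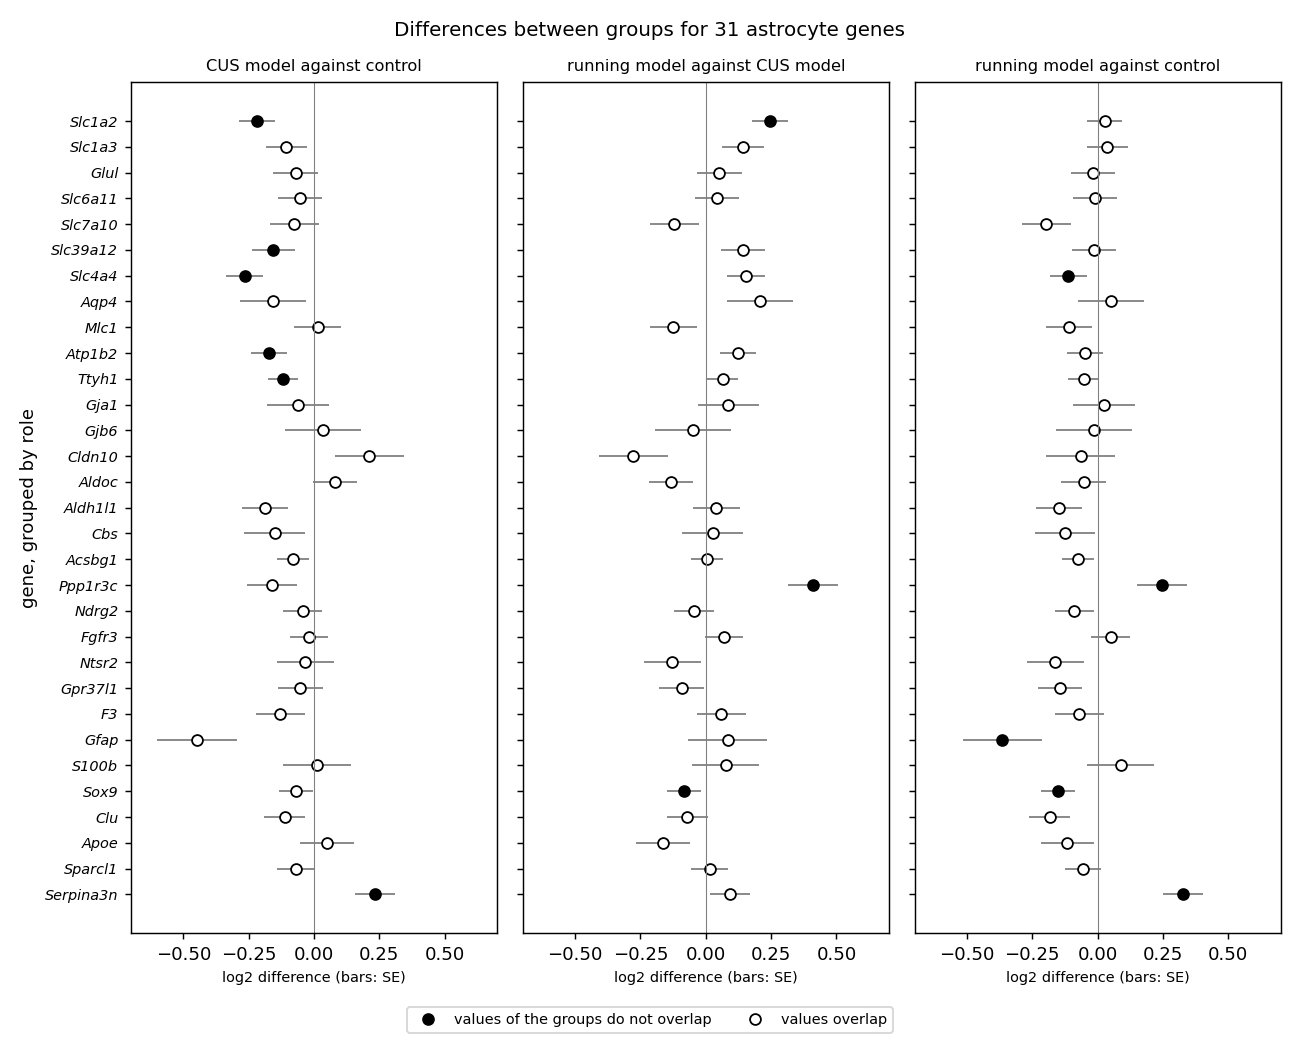
Each panel is 1 comparison; points are log2 differences of the 31 genes on the log2(FPKM + 0.5) scale with bars of 1 SE from limma, filled where the 3 and 3 library values do not overlap. Most points of CUS against control lie left of 0, Slc1a2 changes side between the first and second panels, and Ppp1r3c and Serpina3n lie farthest right in the third.

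The 31 genes are next described by role, beginning with the handling of glutamate and GABA. Slc1a2, the transporter GLT-1 that clears most synaptic glutamate, had 210.25, 228 and 224 FPKM in the controls, 191, 189 and 188 in CUS, and 204, 232 and 239 in running. The 3 CUS libraries lay within a narrow band below all 6 others. The log2 difference was -0.22 for CUS minus control (SE 0.07, limma adjusted p = 0.267) and 0.24 for running minus CUS (SE 0.07, limma adjusted p = 0.0928). Once each library's dependence on transcript length and GC content was removed, these were -0.105 and 0.063, and the second was 0.38 with quantile normalization. The transcript of Slc1a2, at 11595 bases in GENCODE M21, was the longest of the 31. Slc1a3, the transporter GLAST, had 132, 140.24 and 151 FPKM in controls, 130.18, 126 and 136 in CUS, and 129, 155 and 151 in running. Its groups overlapped, with log2 differences of -0.11 and 0.14 in the first and second comparison.

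Glul, which turns glutamate into glutamine, had 581, 582 and 669.5 FPKM in controls, 567, 564 and 612 in CUS, and 548, 643 and 620.3 in running. The overlapping values gave log2 differences of -0.07 for CUS minus control and 0.05 for running minus CUS. Of the 50-base words of its transcript, 14.2% also occurred in transcripts of other genes, chiefly a pseudogene, so its reads could be shared. Slc6a11, the GABA transporter GAT-3, lay between 28.4 and 34.4 FPKM in the 9 libraries, with log2 differences between -0.05 and 0.04. The summed FPKM of these 4 genes was 953 to 1077 in controls, 909.8 to 965 in CUS and 909.4 to 1064 in running.

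Among carriers of amino acids, zinc and bicarbonate, Slc4a4 and Slc39a12 were lower in each CUS library than in each control. Slc4a4, the sodium bicarbonate cotransporter NBCe1 that buffers pH around synapses, had 13.9, 14.6 and 14.2 FPKM in controls, 13.0, 11.2 and 11.1 in CUS, and 12.4, 13.6 and 13.4 in running. Controls were above both other groups without overlap. The log2 difference from control was -0.27 in CUS (SE 0.07, limma adjusted p = 0.253) and -0.11 in running (SE 0.07, limma adjusted p = 0.581). It was -0.17 in CUS with library quality weights. In running it was -0.18 with the length and GC trend removed and -0.07 without running replicate 1. Slc39a12, a zinc importer, had 14.6, 14.6 and 16.8 FPKM in controls, 13.7, 13.1 and 14.3 in CUS, and 13.9, 14.9 and 16.8 in running. Its log2 difference in CUS was -0.16 (limma adjusted p = 0.379), and -0.09 without control replicate 3. Slc7a10, a carrier of serine and other small neutral amino acids, had 14.5, 16.0 and 18.3 FPKM in controls, 14.4, 15.0 and 16.7 in CUS, and 13.7, 15.3 and 13.3 in running, and the groups overlapped.

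In the group of water, potassium and volume control, Atp1b2 and Ttyh1 separated CUS from control. Atp1b2, the beta subunit of the glial sodium-potassium pump, had 191, 176 and 192 FPKM in controls, 166, 165 and 165 in CUS, and 164, 187 and 191 in running. The CUS values lay close together and below every control, while running replicate 1 was lower still. The log2 difference of CUS was -0.17 (SE 0.07, limma adjusted p = 0.309). Ttyh1, a chloride channel opened by cell swelling, had 184, 179.5 and 196 FPKM in controls, 169.8, 168 and 177 in CUS, and 172, 185 and 182 in running. Its log2 difference in CUS was -0.12 (limma adjusted p = 0.361), -0.07 with the length and GC trend removed and -0.185 after rescaling to TPM. Aqp4, the water channel of astrocyte endfeet, had 16.1, 15.7 and 17.0 FPKM in controls, 13.97, 11.9 and 18.5 in CUS, and 15.7, 17.9 and 17.1 in running. CUS thus held both its lowest and its highest library, and the groups overlapped (log2 difference -0.16, limma adjusted p = 0.545). Without CUS replicate 3 the difference was -0.33, and without CUS replicate 2 it was -0.02. Mlc1, a membrane protein of perivascular endfeet, lay between 52.1 and 65.1 FPKM in the 9 libraries with overlap throughout.

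The junction genes were among the most variable of the 31. Gja1, the gap junction protein connexin 43, had 42.1, 45.1 and 47.7 FPKM in controls, 42.9, 37.3 and 49.8 in CUS, and 39.2, 52.5 and 46.4 in running. Gjb6, connexin 30, had 36.2, 34.8 and 42.8 FPKM in controls, 33.0, 36.8 and 47.8 in CUS, and 31.6, 43.7 and 37.8 in running. For both connexins the control values lay within the range of the CUS values, and log2 differences lay between -0.06 and 0.09. Cldn10, a claudin of tight junctions, had 25.2, 25.8 and 29.4 FPKM in controls, 29.7, 25.4 and 39.7 in CUS, and 24.7, 25.5 and 26.5 in running. Its CUS mean rested on replicate 3, since the log2 difference from control was 0.21 with that library and 0.04 without it. For running minus CUS it was -0.28 (limma adjusted p = 0.228), -0.10 without CUS replicate 3, and -0.42 without CUS replicate 2 (adjusted p = 0.0426, among 1518 genes called).

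Ppp1r3c stood apart among the metabolic genes. It encodes a targeting subunit that brings protein phosphatase 1 to glycogen and promotes glycogen synthesis, and glycogen of the brain is stored mainly in astrocytes. It had 14.6, 11.99 and 14.6 FPKM in controls, 12.2, 11.2 and 13.0 in CUS, and 14.7, 17.8 and 16.6 in running. Each running library was above each library of the other groups, although running replicate 1, at 14.66, was only just above control replicates 1 and 3, at 14.55 and 14.56. The log2 difference was 0.41 from CUS (SE 0.10, limma adjusted p = 0.0776) and 0.25 from control (SE 0.10, limma adjusted p = 0.362). It was between 0.35 and 0.52 from CUS under all settings tried, and 0.16 from control without control replicate 2.

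The other enzymes overlapped between all groups. Aldoc had 284, 282 and 322 FPKM in controls, 293, 297 and 349.98 in CUS, and 271, 284 and 299 in running, with log2 differences of 0.08 and -0.13 in the first and second comparison. Aldh1l1, the folate enzyme widely used to mark astrocytes, had 17.9, 18.8 and 22.5 FPKM in controls, 18.0, 16.5 and 17.0 in CUS, and 16.4, 17.8 and 19.0 in running. Its log2 difference in CUS was -0.19 (limma adjusted p = 0.351). Cbs, which makes cystathionine from homocysteine, lay between 10.5 and 15.3 FPKM, Acsbg1, an acyl-CoA synthetase, between 39.8 and 46.7, and Ndrg2 between 259 and 321. For these 3 the highest library was control replicate 3, and their log2 differences lay between -0.15 and 0.03.

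The receptors and surface proteins overlapped between the groups in every comparison. Gpr37l1, an orphan receptor, had 66.1, 73.9 and 80.9 FPKM in controls, 72.4, 64.2 and 76.2 in CUS, and 62.9, 66.2 and 70.27 in running. Ntsr2, a neurotensin receptor, lay between 54.4 and 74.1 FPKM, and both it and Gpr37l1 had their lowest library in running replicate 1 and their highest in control replicate 3. Fgfr3, a receptor of fibroblast growth factors, lay between 26.4 and 30.8 FPKM, and F3, the tissue factor that starts coagulation, between 17.6 and 23.5. Log2 differences of these 4 in CUS against control lay between -0.13 and -0.02.

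Gfap, the filament protein of astrocytes, had the largest difference of the 31 in CUS against control, without separating the groups. It had 32.2, 27.6 and 36.4 FPKM in controls, 20.4, 20.1 and 30.5 in CUS, and 22.8, 27.3 and 24.0 in running. CUS replicates 1 and 2 were the lowest of the 9 libraries, while CUS replicate 3 lay within the range of the controls. The log2 difference from control was -0.45 in CUS (SE 0.15, limma adjusted p = 0.267) and -0.36 in running (SE 0.15, limma adjusted p = 0.395). In running all 3 libraries were below all 3 controls, with running replicate 2, at 27.32, just under control replicate 2, at 27.62. Without control replicate 3, the library with high myelin and Ttr values, the differences were -0.35 and -0.27, and without CUS replicate 3 that of CUS was -0.64.

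S100b, a calcium-binding protein, had 46.2, 47.4 and 52.4 FPKM in controls, 43.6, 43.0 and 62.9 in CUS, and 50.9, 48.1 and 56.5 in running. As with Aqp4 and Cldn10, CUS replicate 3 was its highest library, and the groups overlapped. Sox9 had 8.07, 8.98 and 9.16 FPKM in controls, 8.44, 8.10 and 8.36 in CUS, and 7.80, 7.73 and 7.89 in running. Its running values lay below every other library and close to each other. The log2 difference of running was -0.15 from control (SE 0.07, limma adjusted p = 0.415) and -0.08 from CUS (limma adjusted p = 0.469). The second was -0.15 with the length and GC trend removed and 0.013 after rescaling to TPM, a setting that moved the median of all tested genes by 0.095 in this comparison.

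In both comparisons with control, Serpina3n went against the direction of most of the 31 genes. In running against CUS it was higher by 0.09 on the log2 scale, as 20 of the 31 were. This secreted serine protease inhibitor is a marker of reactive astrocytes and is induced by inflammation and by glucocorticoids. It had 8.48, 7.76 and 8.08 FPKM in controls, 8.63, 9.90 and 10.4 in CUS, and 10.7, 9.89 and 10.3 in running. All 6 libraries of the stressed and running groups were above all 3 controls, and CUS replicate 1 lay nearest to them. The log2 difference from control was 0.23 in CUS (SE 0.08, limma adjusted p = 0.267) and 0.33 in running (SE 0.08, limma adjusted p = 0.172). In CUS it was 0.13 with library quality weights, and in running it was between 0.30 and 0.39 under all settings tried. With those weights the limma adjusted p in running was 0.0436, among 147 genes called. Of the 50-base words of its transcript 6.9% also occurred in other genes, chiefly the pseudogene Serpina3e-ps, so part of its reads could be shared. A list of 14 glucocorticoid-induced genes went the other way in CUS, with 13 lower and 1 higher than in control. At an unadjusted limma p under 0.05 there were 6 lower and 0 higher, where 5.79% and 8.90% of all tested genes were. In running, 13 were higher and 1 lower than in CUS, and 7 were higher and 7 lower than in control.

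The other secreted proteins overlapped between groups. Apoe had 1057, 967 and 1183 FPKM in controls, 1019, 1066 and 1234 in CUS, and 931, 1066 and 959.82 in running. Clu had 461, 434 and 525 FPKM in controls, 439.51, 429.95 and 441 in CUS, and 389.56, 422.60 and 436 in running. The log2 difference of Clu in running against control was -0.18 (SE 0.08, limma adjusted p = 0.414), and -0.11 without control replicate 3. Sparcl1, also called hevin, which promotes the formation of synapses, lay between 531 and 624 FPKM, with log2 differences between -0.07 and 0.01.

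**Figure D4:**
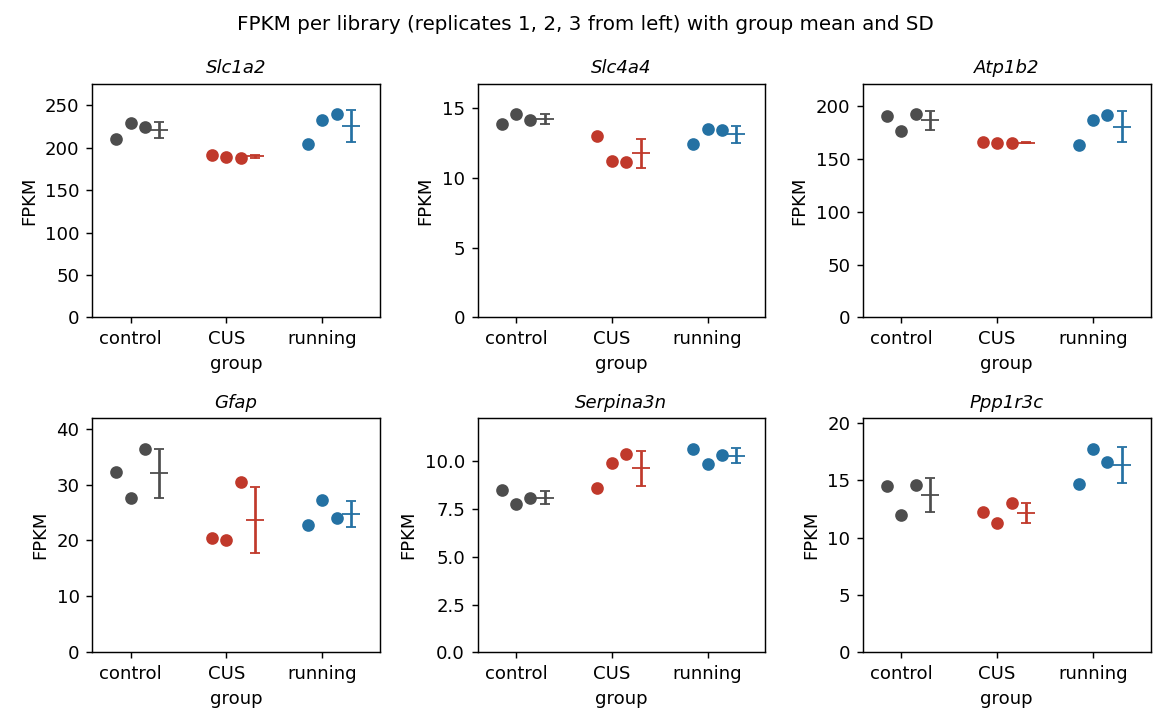
Points are the FPKM of 6 genes in each library, with replicates 1 to 3 from left to right in each group; the horizontal dash and bars beside them are the group mean and SD (n = 3), and all vertical axes start at 0. The 3 CUS values of Slc1a2 lie between 188 and 191, all Serpina3n controls lie below both other groups, and all running values of Ppp1r3c lie above both other groups.

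The differences were also read against the other astrocyte genes of the same library. When each value was taken relative to the mean of the other 30 genes in its library, an alternative chosen after seeing the data, Serpina3n remained above the controls without overlap in CUS and running, with log2 differences of 0.32 and 0.39. Ppp1r3c stayed above both other groups in running, by 0.39 from CUS and 0.31 from control. Slc1a2, Slc1a3 and Slc39a12 were also higher in running than in CUS without overlap on this scale. Slc7a10, Cldn10, Aldoc, Ndrg2, Ntsr2, Gpr37l1 and Apoe were lower. Slc1a2, Slc4a4, Atp1b2 and Ttyh1 overlapped between CUS and control on this scale, with log2 differences of -0.15, -0.20, -0.10 and -0.04. Slc39a12 remained lower in CUS than in control, and Cldn10 and Aldoc were higher there, without overlap. In running against control Gfap and Clu were lower and Aqp4 and Fgfr3 higher without overlap, while Sox9 and Slc4a4 overlapped. Shares of all tested genes were not computed on this relative scale, so these lists have no background to be read against. On the FPKM scale, 8.99% of all tested genes were higher and 15.9% lower in running than in CUS without overlap. The shares were 12.1% and 7.60% in CUS against control, and 10.5% and 11.9% in running against control.

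A wider list of 45 further astrocyte genes, with none of the 31, was read in the same way. In CUS against control 28 were lower and 17 higher, with a median of -0.06, and by limma 0 passed an adjusted p of 0.05, with 7 lower and 2 higher at an unadjusted p under 0.05, where 5.79% and 8.90% of all tested genes were. Daam2, a Wnt pathway protein, had 12.4 ± 1.12 FPKM in CUS, 16.4 ± 2.03 in controls and 16.0 ± 1.24 in running (SD, n = 3 each). Its CUS libraries overlapped with neither other group, with log2 differences of -0.39 from control and 0.36 for running minus CUS (limma adjusted p = 0.253 and 0.0917). Ntrk2, the receptor of BDNF, had 86.4 ± 4.66 FPKM in CUS, 99.0 ± 2.43 in controls and 98.3 ± 6.62 in running, again with no overlap of CUS with the others. Its CUS replicate 2, at 90.67, was only just below running replicate 1, at 90.7. In running against CUS 23 of the 45 were higher and 22 lower, with a median of 0.01 and 4 in each direction at an unadjusted p under 0.05, where 7.74% of all tested genes were higher and 15.7% lower. Paqr6 had the smallest p, at 1.83 ± 0.101 against 2.80 ± 0.341 FPKM (limma adjusted p = 0.0776), and Dio2, which activates thyroid hormone, had 17.4 ± 2.28 against 11.6 ± 2.89 FPKM, or 0.59 on the log2 scale (limma adjusted p = 0.0891). In running against control 35 of the 45 were lower and 10 higher, with a median of -0.04. Of all tested genes 56.2% were lower, with a median of -0.02. At an unadjusted p under 0.05 there were 4 lower and 1 higher of the 45, where 6.47% and 5.15% of all tested genes were. Among the most abundant of the 45 were Mt3, at 444 FPKM, and Fam107a, at 174.

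Of 36 genes of reactive astrocytes, 26 passed the filter. In CUS against control 18 were higher and 8 lower, with a median of 0.03, and 0 passed by limma. At an unadjusted p under 0.05 there were 2 lower, Osmr and Hspb1, and 0 higher, where 5.79% and 8.90% of all tested genes were. In running against CUS 8 were higher and 18 lower, with a median of -0.09. At an unadjusted p under 0.05 there were 2 higher and 3 lower, where 7.74% and 15.7% of all tested genes were. The smallest p values were those of the 2 higher, Fkbp5, a glucocorticoid-induced chaperone, at 14.3 ± 1.13 against 9.87 ± 2.27 FPKM (limma adjusted p = 0.121) and Stat3, at 12.2 ± 0.310 against 10.5 ± 0.862 FPKM (limma adjusted p = 0.132). In running against control 11 were higher and 15 lower, with a median of -0.03.

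Ppp1r3c was read beside 15 genes of glycogen and lactate metabolism. In CUS against control 7 of the 15 were higher and 8 lower, with a median of -0.018. In running against CUS 8 were higher and 7 lower, with a median of 0.008. In running against control 4 were higher and 11 lower, with a median of -0.024. Of all tested genes, 55.9%, 42.2% and 43.8% were higher in these 3 comparisons. By limma 0 of the 15 passed in any comparison. At an unadjusted p under 0.05 there were 4 lower and 0 higher in CUS against control, 3 higher and 1 lower in running against CUS, and 1 higher and 2 lower in running against control. The shares of all tested genes at that p were 5.79% lower and 8.90% higher, 7.74% higher and 15.7% lower, and 5.15% higher and 6.47% lower. Pfkfb3, which makes the activator of glycolytic phosphofructokinase, had 7.46 ± 0.343 FPKM in controls, 7.68 ± 0.945 in CUS and 10.6 ± 0.110 in running. Like Ppp1r3c, its running libraries were above both other groups, with log2 differences of 0.45 from CUS and 0.48 from control (limma adjusted p = 0.0776 and 0.0870). Pygm, a glycogen phosphorylase, had 16.4 ± 6.26 FPKM in controls, 9.46 ± 0.368 in CUS and 9.51 ± 0.501 in running, where both groups were below every control. Control replicate 1, at 23.44 FPKM, was well above the other controls, at 11.44 and 14.34. Of 16 genes of factors by which astrocytes act on synapses, 15 passed the filter, 10 were lower and 5 higher in CUS, and 10 were higher and 5 lower in running than in CUS, with 0 called by limma. In CUS against control 2 were lower and 1 higher at an unadjusted limma p under 0.05, where 5.79% and 8.90% of all tested genes were. Groups did not overlap for 4 lower and 2 higher genes, against 7.60% and 12.1% of all tested genes. Sparc, a counterpart of Sparcl1 that restrains synapse formation, was among the higher genes, against the direction of most of the list. It had 79.8 ± 8.31 FPKM in CUS against 64.1 ± 3.00 in controls (limma adjusted p = 0.267), without overlap.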

How the data were processed

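Per the labels' protocols, polyadenylated RNA of the tissue was made into random-primed libraries, and nothing marks the strand, so antisense reads cannot be told apart. The authors deposited FPKM values rounded to 2 decimals, with no counts, so the depth per library is unknown and no counting interval is given. The submitters' processing notes name Bowtie2 2.2.5, RSEM 1.2.12, DESeq2 1.4.5 and mm10, with no roles. The 30264 rows without an NCBI gene identifier were at 0 throughout.

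Values were analysed as log2(FPKM + 0.5), a scale that understates changes of low genes, for the 14013 genes that reached 0.5 FPKM in 3 or more libraries. One limma 3.58.1 model (R 4.3.3) of all 9 libraries with an intensity trend had 6 residual degrees of freedom and 4.71 prior ones (median), and Benjamini-Hochberg adjustment ran over all tested genes. An exact test of 3 against 3 libraries cannot go below 0.1.

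The 31 genes and all lists were chosen with earlier results of these data known. Genes were given library by library where groups did not overlap, where an unadjusted p was under 0.05, or where they were the most abundant of a role. A few others follow by choice after their values were seen. From other lists, the 3 most abundant and up to 2 with the smallest p per comparison could be named. Lengths, GC content and 50-base words came from GENCODE M21 transcripts (98.2% of tested genes), gene positions and promoters from RefSeq on GRCm38.p6. Planned protein identities were not computed here, and shared 50-base words took their place. The labels name no batch.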

Additional observations from a re-analysis of the deposited data

How the results depend on the processing

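No paired analysis was possible because replicate numbers follow only the order of listing and the labels pair no libraries. All 3 median differences and the counts of called genes were recomputed under 9 planned settings, without each library, and without control replicate 3 and CUS replicate 3 together, the last chosen after seeing the data. Genes called in CUS against control numbered 0 with a filter of a mean of at least 1 FPKM, 8 with library quality weights, 0 with the length and GC trend removed, 0 without that pair of libraries, and 1 to 6 without 1 library. In running against CUS they numbered 0 with no filter, 3 after rescaling to TPM, 2 with quantile normalization, 2178 with library quality weights, 15 with only the 6 libraries compared, 0 with the trend removed, 0 without the pair, and 0 to 1518 without 1 library. In running against control they numbered 1 with no filter, 147 with weights, 24 with only the 6 libraries, 7 with the trend removed, and 1 to 10 without 1 library. Of the 31 astrocyte genes, 3 were called with weights in running against CUS, where 2178 of the 14013 tested genes were. In running against control 1 was called with weights, where 147 of the 14013 were. Without 1 library, between 0 and 1 of the 31 were called in running against CUS. Without 1 library the median of the 31 ran from -0.135 to -0.03 in CUS against control, from -0.015 to 0.093 in running against CUS, and from -0.089 to -0.015 in running against control. Rescaling to TPM multiplies all values of a library by 1 factor, which came to -0.063, 0.095 and 0.034 in the median of all tested genes in the 3 comparisons. Under it the median of the 31 was 0.145 in running against CUS, and Sox9 there was 0.013, a turn of sign about as large as the common shift. The cause of the other shifts was not tested.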
